A study of Homo sapiens with 4 samples.

Results

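Matrix metalloproteases, ADAM proteases, tissue inhibitors of metalloproteases and the hyaluronan receptor CD44 were examined in A549 cells with and without knockdown of YTHDF2. The group consisted of 10 genes chosen by name, namely MMP2, MMP7, MMP14, MMP24, ADAM9, ADAM10, ADAM17, TIMP1, TIMP2 and CD44, out of 28283 genes in the expression table. FPKM is a fragment count scaled to exon length and library size. All 10 genes reached an FPKM of 1 in one or both input libraries, as did 12268 genes in all.

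A549 is a human lung adenocarcinoma line. The cells carried either a control vector (shNC) or a lentiviral shRNA against YTHDF2 (shY2-2), which is a single shRNA construct under puromycin selection. Poly(A) RNA was fragmented, and each condition was represented by 1 input library and 1 library made after pull-down with an m6A antibody, giving 4 libraries in all. Every difference described here therefore compares single libraries and has no replicate check, no p-value between conditions was computed, and the read depth behind an FPKM or a peak is unknown.

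MMPs and ADAMs are zinc-dependent proteases. MMPs cut components of the extracellular matrix, whereas ADAMs release the outer parts of membrane proteins, and TIMPs bind and block the active site of these enzymes. CD44 anchors cells to hyaluronan, carries MMPs on the cell surface and is itself cut by MMP14, ADAM10 and ADAM17, which makes the 10 genes a set of enzymes, inhibitors and a shared partner. YTHDF2 is a reader protein that binds m6A, a methylated adenosine of mRNA, and recruits the machinery that degrades the bound transcript.

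GGAC is the core of the motif in which m6A is most often found. Sequence around it is shown for the stretches of these mRNAs that lay inside a peak in both conditions. Whether a printed site was methylated was not tested. The letters come from the GRCh38 reference and are written as DNA of the mRNA strand, 5′ to 3′, with GGAC in capitals. The CD44 sites lie in the peak with the largest difference in enrichment between the lists, and the TIMP2 sites in the single TIMP2 peak that both lists held. The ADAM17 and TIMP1 sites lie in peaks that the lists file under other genes.
CD44 coding site 1 (chr11:35229172-35229192, + strand, exon 18): gctgtggaGGACagaaagcca
CD44 coding site 2 (chr11:35229188-35229208, + strand, exon 18): agccaagtGGACtcaacggag
MMP7 coding site 1 (chr11:102524989-102525009, - strand, exon 4): tgcgcctgGGACaggtctcgg
MMP7 coding site 2 (chr11:102524944-102524964, - strand, exon 4): tgaacgctGGACggatggtag
MMP7 coding site 3 (chr11:102523336-102523356, - strand, exon 5): tgggtatgGGACattcctctg
MMP24 3′-UTR site 1 (chr20:35276517-35276537, + strand, exon 9): ccatctgtGGACccctctagg
MMP24 3′-UTR site 2 (chr20:35276832-35276852, + strand, exon 9): tcaccccaGGACagggcagac
MMP24 3′-UTR site 3 (chr20:35276896-35276916, + strand, exon 9): agcctgggGGACatcacagca
TIMP2 3′-UTR site 1 (chr17:78853192-78853212, - strand, exon 5): gaaatattGGACttgctgccg
TIMP2 3′-UTR site 2 (chr17:78852992-78853012, - strand, exon 5): cggtccgtGGACaataaacag
ADAM17 coding site (chr2:9490252-9490272, - strand, last exon): gatctcacGGACcatccggtc
ADAM17 3′-UTR site (chr2:9488786-9488806, - strand, last exon): atttccaaGGACatttgttac
TIMP1 coding site (chrX:47586568-47586588, + strand, last exon): ttgcttgtGGACGGACcagct

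The RNA of most of these genes was lower in the shY2-2 library. ADAM9 and MMP24 were lower past a log2 ratio of 1 in size, TIMP2 and MMP7 were lower past 1.5-fold, and TIMP1, ADAM17 and MMP14 had ratios above 0. A pseudocount of 1 was added to each FPKM before the ratio of shY2-2 over shNC was taken, and this shrinks the ratios of genes with low FPKM. Of the 10 genes, 0 were higher and 2 were lower past a log2 ratio of 1, while 0.986% of all genes tested were higher and 2.14% lower, or 3.12% in either direction. Past 1.5-fold, 0 were higher and 4 lower, against 5.38% higher and 8.92% lower of all genes, or 14.3% in either direction. The 10 genes had 7 ratios below 0 and a median of -0.44, compared with 49.7% of ratios below 0 and a median of 0.00 among all 12268 genes.

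**Figure D1:**
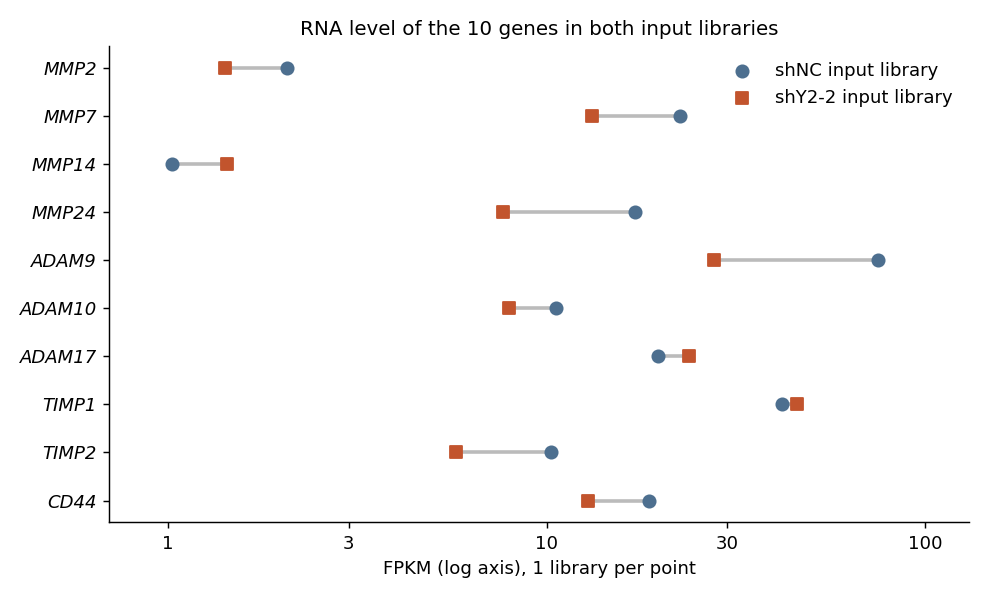
FPKM of each gene (log axis) in the shNC input library (circles) and the shY2-2 input library (squares), 1 library per point, with a grey line joining both values of a gene. ADAM9 showed the widest gap, from 75.0 to 27.6, and the squares lie right of the circles for MMP14, ADAM17 and TIMP1 alone.

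YTHDF2, the gene targeted by the shRNA, had an FPKM of 3.56 in the shNC library and 1.02 in the shY2-2 library, a log2 ratio of -1.18. All 6 epithelial marker genes (KRT7, KRT8, KRT18, KRT19, EPCAM and CDH1) had an FPKM of at least 1, and all 6 were lower in the shY2-2 library, with a summed FPKM of 1597 in shNC and 1021 in shY2-2. Of other cell types, 1 of 5 fibroblast markers, 0 of 4 endothelial markers and 2 of 5 immune markers (CD68 and CD14) reached an FPKM of 1 in either library, and PTPRC stayed at 0.10 and 0.039. In bulk RNA, fewer cells of a kind and less RNA per cell cannot be told apart, and the part of the epithelial difference in the results below was not tested.

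Among the secreted MMPs, MMP7 and MMP2 were both lower in the shY2-2 library. MMP7 (ENSG00000137673, chr11:102520508-102530753, - strand) encodes matrilysin, a small secreted protease typical of epithelial and carcinoma cells. Its FPKM was 22.5 in shNC and 13.2 in shY2-2, and its log2 ratio of -0.73 lay at percentile 5.35 of all genes tested. MMP2 (ENSG00000087245, chr16:55389700-55506691, + strand), the gelatinase that degrades type IV collagen, was close to the expression limit, with an FPKM of 2.06 in shNC and 1.41 in shY2-2 and a log2 ratio of -0.34. MMP7 was thus the main secreted MMP of both libraries, and the ratio of MMP2 lay at percentile 19.8, well inside the body of all genes.

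The membrane-bound MMPs had ratios on opposite sides of 0. MMP14 (ENSG00000157227, chr14:22836557-22849027, + strand), the membrane protease that activates the proenzyme of MMP2 together with TIMP2, had an FPKM of 1.02 in shNC and 1.43 in shY2-2, a log2 ratio of 0.27. MMP24 (ENSG00000125966, chr20:35226654-35277000, + strand), another membrane-type MMP that is best known from neurons and that cuts N-cadherin, had an FPKM of 17.1 in shNC and 7.64 in shY2-2. Its log2 ratio of -1.06 lay at percentile 1.75 of all genes and at percentile 2.08 of the genes with a mean FPKM between 5 and 20. MMP24-AS1, a gene on the opposite strand whose bounds hold all of MMP24, was also lower, with an FPKM of 4.97 in shNC and 2.47 in shY2-2. The libraries were strand-specific, but whether strand was used in counting is not given in the sources used here, so that reads of MMP24 and MMP24-AS1 cannot be told apart.

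The 3 ADAM proteases gave different ratios. ADAM9 (ENSG00000168615, chr8:38996869-39105144, + strand), a widely expressed sheddase with roles in cell adhesion, had an FPKM of 75.0 in shNC and 27.6 in shY2-2, so that the shY2-2 value was 36.8% of the shNC value. Its log2 ratio of -1.41 lay at percentile 0.518 of all genes and at percentile 0.484 of the genes with a mean FPKM between 20 and 100. ADAM10 (ENSG00000137845, chr15:58588807-58749978, - strand), the constitutive sheddase of Notch, E-cadherin and CD44, had an FPKM of 10.6 in shNC and 7.95 in shY2-2, a log2 ratio of -0.37. ADAM17 (ENSG00000151694, chr2:9488486-9555792, - strand), which releases TNF and ligands of the EGF receptor, had an FPKM of 19.7 in shNC and 23.8 in shY2-2, a log2 ratio of 0.26. Within each library, ADAM9 exceeded ADAM17 by 3.80-fold in shNC and by 1.16-fold in shY2-2, and ADAM17 exceeded ADAM10 by 1.86-fold and 2.99-fold.

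The inhibitors did not share a direction. TIMP1 (ENSG00000102265, chrX:47582313-47586789, + strand), a secreted inhibitor of most MMPs and of ADAM10, had an FPKM of 41.9 in shNC and 45.9 in shY2-2, a log2 ratio of 0.13. TIMP2 (ENSG00000035862, chr17:78852977-78925387, - strand), which blocks MMPs and also bridges MMP14 to pro-MMP2, had an FPKM of 10.3 in shNC and 5.74 in shY2-2, a log2 ratio of -0.74 at percentile 5.25. The ratio of TIMP1 to TIMP2 was 4.08 in shNC and 8.00 in shY2-2. The summed FPKM of both inhibitors was nearly equal in the libraries, at 52.1 and 51.7, whereas that of the 4 MMPs was 42.7 and 23.6 and that of the 3 ADAMs 105.3 and 59.4.

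CD44 (ENSG00000026508, chr11:35138870-35232402, + strand), the hyaluronan receptor, had an FPKM of 18.6 in shNC and 12.8 in shY2-2, and its log2 ratio of -0.51 lay at percentile 11.3. The gene-level FPKM does not separate its splice forms. In both libraries CD44 ranked number 5 among the 10 genes.

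By level, ADAM9, TIMP1 and MMP7 led the shNC library, and TIMP1, ADAM9 and ADAM17 led the shY2-2 library. TIMP2, MMP2 and MMP14 were the lowest of the shNC library, and the same 3 genes were the lowest of the shY2-2 library, with MMP14 above MMP2 there. MMP2 exceeded MMP14 by 2.01-fold in shNC, and in shY2-2 their ratio was 0.983. Which neighbours in these orders differ beyond the spread between replicates cannot be told from 1 library per condition.

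**Figure D2:**
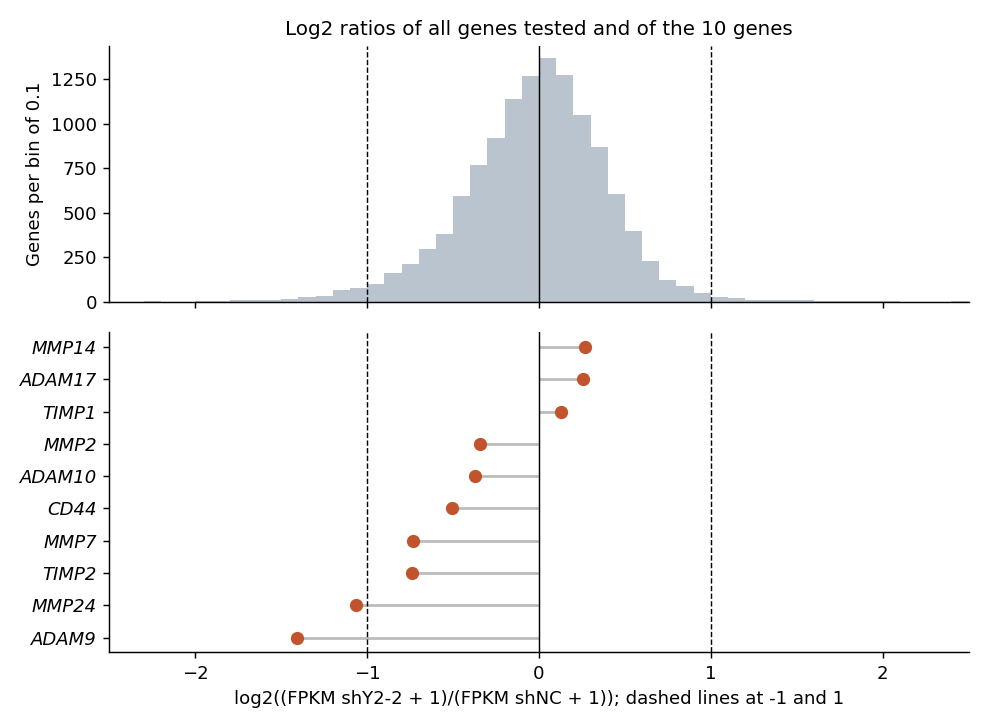
Upper panel, number of genes per bin of log2((FPKM shY2-2 + 1)/(FPKM shNC + 1)) for the 12268 genes tested, with 19 genes beyond the axis limit of 2.5 in size not drawn. Lower panel, the ratio of each of the 10 genes, of which ADAM9 (-1.41) and MMP24 (-1.06) lie past the dashed line at -1.

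Related genes, with the 10 genes among them, were grouped by role in 9 lists of 136 genes, of which 75 could be tested. Across the lists, 0 genes were higher and 3 lower past a log2 ratio of 1, next to 3.12% of all genes in either direction. Of the 75 ratios 47 were below 0, among them 7 of the 10 genes, against 49.7% of all genes. The median of the 75 was -0.22 and that of all genes 0.00, and a median of the 75 without the 10 genes was not computed. The 3 genes were ADAM9, MMP24 and CEMIP2. CEMIP2, a cell surface protein that promotes the breakdown of hyaluronan, had an FPKM of 27.9 in shNC and 7.85 in shY2-2, a log2 ratio of -1.71 that exceeded that of any of the 10 genes in size.

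The protease families had few expressed members. Of 23 MMPs, 6 were tested, and apart from the 4 described above these were MMP15 and MMP17, so that the MMP list had 0 genes higher and 1 lower and a median of -0.16. Without the 4, the median was 0.04. Of 13 ADAMs with an active site, 5 were tested, again with 0 higher and 1 lower and a median of -0.16. Without the ADAMs described above, 2 genes were left with a median of 0.38. ADAM19 had the highest ratio of that list, with an FPKM of 0.906 in shNC and 2.60 in shY2-2 and a log2 ratio of 0.92. Of 19 ADAMTS proteases, secreted enzymes that cut proteoglycans, 4 were tested and 0 passed in either direction, with ratios from -0.81 (ADAMTS10) to 0.44 (ADAMTS15) and a median of -0.54.

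Inhibitors and activators of proteolysis gave 0 genes past the threshold. The list of 6 metalloprotease inhibitors had 5 tested genes and a median log2 ratio of -0.69, from -0.94 for A2M, a plasma protease trap, to 0.27 for RECK, a membrane-anchored MMP inhibitor. Without TIMP1 and TIMP2 the median was also -0.69. Of the 15 regulators of ADAM10, ADAM17 and MMPs, 12 were tested, with a median of -0.07. They ranged from -0.57 for RHBDF1, an iRhom protein that escorts ADAM17 to the cell surface, to 0.50 for TSPAN33, a tetraspanin partner of ADAM10. The plasminogen activation list had 5 tested genes and a median of -0.59. Its highest gene was SERPINF2, which encodes the main inhibitor of plasmin, with a log2 ratio of 0.39.

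Partners of CD44 and substrates of the sheddases also lay mostly below 0. The list of CD44 ligands, hyaluronan enzymes and partners had 14 tested genes of 18, with 0 higher and 1 lower and a median of -0.23. Without CD44 itself the median was -0.19. SPP1, encoding osteopontin, had the highest ratio of that list, with a log2 ratio of 0.51. Of 8 splicing factors that act on the variable exons of CD44, 6 were tested and 0 passed, from -0.53 (SRSF1) to 0.30 (HNRNPM) with a median of 0.09. Of 24 shed substrates of ADAM10 and ADAM17, 18 were tested and 0 passed. Their median was -0.33, with NRG1, a growth factor of the neuregulin family, lowest at -0.97 and the proteoglycan SDC1 highest at 0.65.

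**Figure D3:**
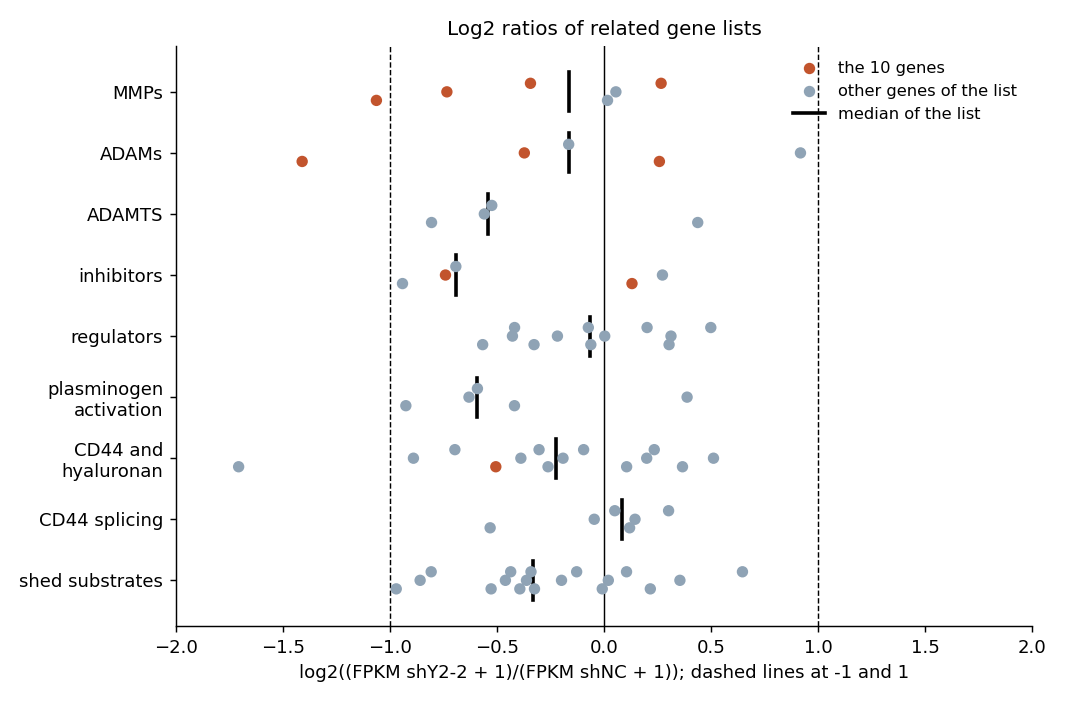
Log2 ratio of each tested gene (points) in the 9 role lists, with the 10 genes in red, other genes in grey and the median of a list as a black bar. CEMIP2 at -1.71 is the point farthest left, in the row of CD44 and hyaluronan genes, and no point lies right of the dashed line at 1.

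The m6A peaks of the same genes were compared next. The shNC list held 25 distinct peaks of these genes among 31057 in all, and the shY2-2 list held 18 among 27344. The peaks belonged to 8 genes in each list, and these were the same genes: MMP7, MMP14, MMP24, ADAM9, ADAM10, TIMP1, TIMP2 and CD44. Of all genes tested, 81.2% had a peak in shNC, 78.4% in shY2-2, 72.7% in both and 13.1% in neither. TIMP2 had 5 peaks in shNC and 1 in shY2-2, of which 1 in each list had an FDR (false discovery rate) of at most 0.05. MMP7, MMP24, ADAM9 and ADAM10 each had 1 peak fewer in shY2-2, CD44 and TIMP1 had equal numbers, and MMP14 had 1 in shNC and 2 in shY2-2.

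Peaks were called by the authors separately in each condition with exomePeak, which gives each peak a fold enrichment of antibody over input fragments and an FDR. The median fold enrichment of the peaks of the 10 genes was 1.73 in shNC and 2.00 in shY2-2, compared with 2.17 and 2.26 for all peaks. An FDR of at most 0.05 was met by 18 of 25 and 14 of 18 peaks, against 56.4% and 52.1% of all peaks. With an FDR of at most 0.001, 13 peaks of 7 genes remained in shNC and 7 peaks in shY2-2, all of the latter in MMP7, MMP24 and ADAM10, against 31.8% and 31.6% of all peaks. A fold enrichment of at least 2 was reached by 11 and 9 peaks, against 57.7% and 59.4% of all peaks, and of at least 4 by 3 in each list, against 19.0% and 22.9%.

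Peaks were matched between the lists when their exonic blocks shared at least 1 bp on the strand of the named gene. Of the 25 shNC peaks, 14 (56.0%) met a shY2-2 peak, and of the 18 shY2-2 peaks, 14 (77.8%) met a shNC peak, against 55.9% and 65.4% over all genes. The matches formed 16 pairs in 7 genes, of which 4 came from a single stretch of the MMP24 3′ UTR where each list held 2 overlapping peaks. With pairs that share a peak counted once, there were 13 regions, of which 7 had a lower and 6 a higher fold enrichment in shY2-2 with a median ratio of 0.926. Over all 15128 such regions, 56.5% were lower, and the median ratio was 0.955. Counted pair by pair, 7 were lower and 9 higher with a median of 1.13, against 57.2% lower and 0.946 over all 21726 pairs, so that the balance of the 10 genes turned on the MMP24 stretch.

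**Figure D4:**
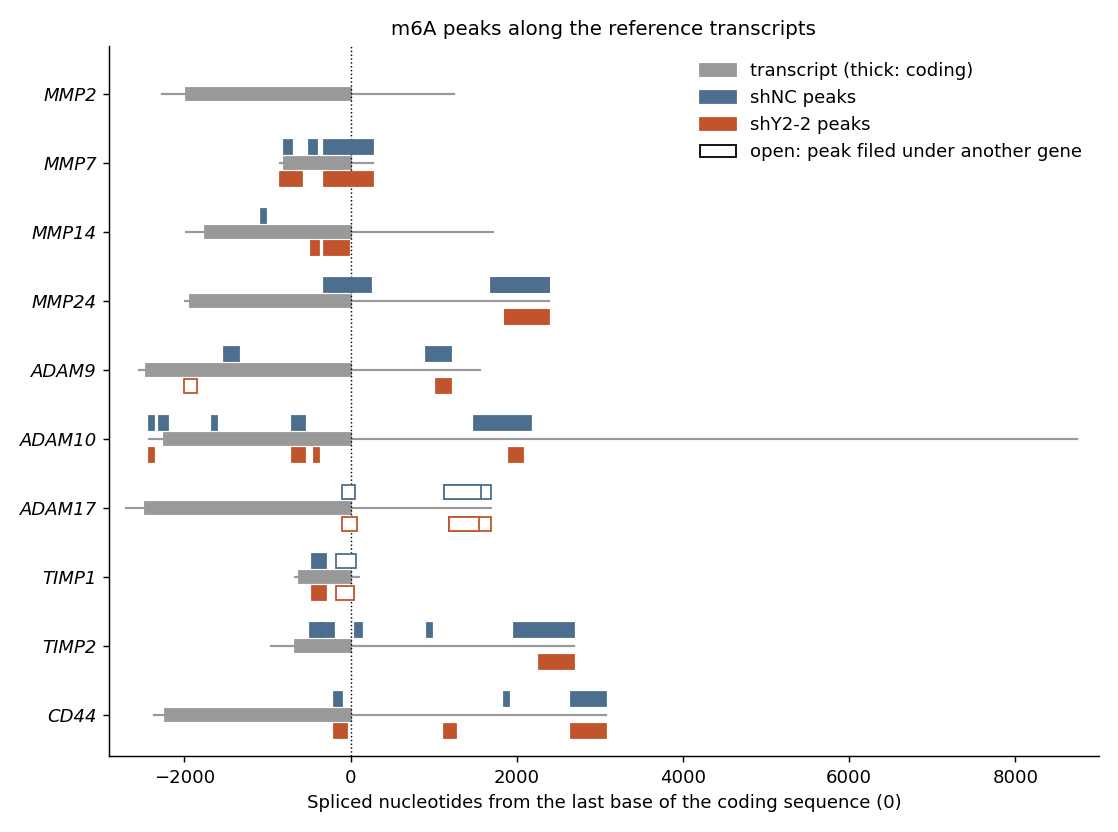
m6A peaks of the shNC list (blue, above) and the shY2-2 list (red, below) along the spliced reference transcript of each gene, in nucleotides from the last coding base, with the coding sequence as a thick grey bar. Open boxes are peaks over exons of the gene that the lists file under another name. MMP2 shows no peak, and the MMP24 box across position 0 is in the shNC row alone.

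CD44 carried the pair with the largest difference. The peak near the end of its coding sequence had a fold enrichment of 7.63 in shNC (FDR 8.71e-07, 151 nt) and of 1.42 in shY2-2 (FDR 0.0105, 180 nt), which is 5.37-fold lower. It spanned chr11:35223272-35229230 in shNC and chr11:35223302-35229289 in shY2-2, and 121 nt were common to both. Most of it lies in exon 18, which encodes the cytoplasmic tail of CD44 and starts the 3′ UTR, and both CD44 coding sites printed above fall within it, with their A 151 and 135 nt before the last coding base.

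The ratio of this CD44 pair lay at percentile 0.518 of all pairs. Among the 1385 pairs with a shNC fold enrichment between 6 and 10, the median shY2-2 value was 4.63, and 1.52% had a shY2-2 value of 1.42 or less. The other CD44 pair, at the end of the 3′ UTR, had identical bounds in both lists (chr11:35231983-35232402) and nearly equal fold enrichment, at 1.60 in shNC and 1.67 in shY2-2. The wide gap at the coding end of CD44 was thus not seen at its 3′ end. Each list also held 1 weak 3′-UTR peak of its own, with an FDR of 0.129 in shNC and 0.244 in shY2-2.

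**Figure D5:**
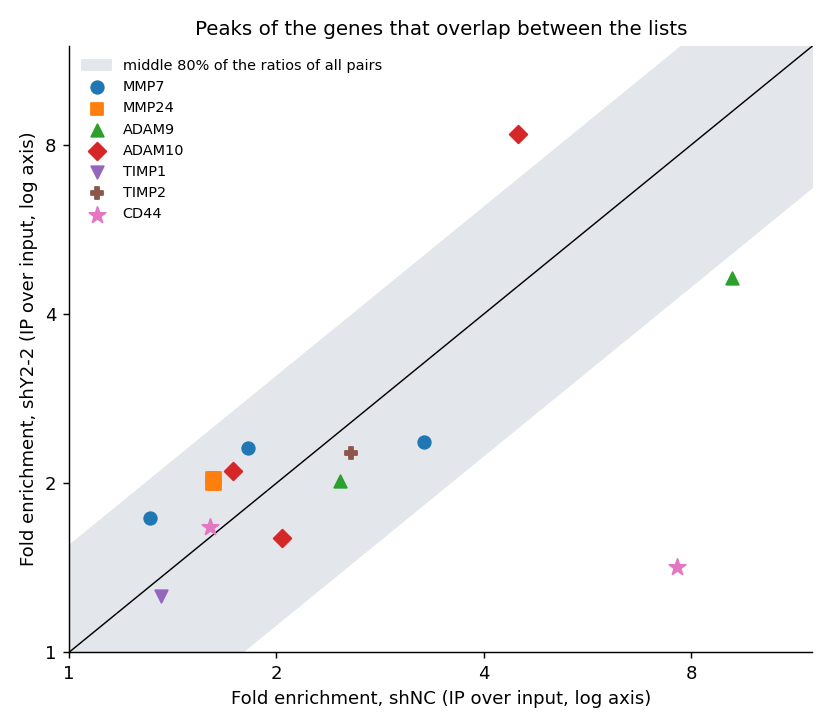
Fold enrichment of the 16 overlapping peak pairs in shNC (x axis) and shY2-2 (y axis), both log axes, 4 of them from overlapping MMP24 peaks at nearly the same place, with the diagonal of equal values and a grey band that holds the middle 80% of the ratios of all 21726 pairs. The CD44 star at 7.63 and 1.42 lies far below the band, the ADAM9 triangle at 9.16 and 4.63 lies just below it, and the ADAM10 diamond at 4.49 and 8.38 lies above it.

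ADAM9 combined the largest difference in RNA with lower enrichment in both of its pairs. A short peak in an exon outside its reference transcript (chr8:39014174-39014234, 61 nt) had a fold enrichment of 9.16 in shNC, and the 510-nt peak over it in shY2-2 had 4.63. Its ratio lay at percentile 7.45 of all pairs, but the median shY2-2 value of the pairs with a shNC enrichment between 6 and 10 was also 4.63. The 3′-UTR peak had 2.47 in shNC (FDR 2.51e-16, 301 nt) and 2.02 in shY2-2 (FDR 0.0123, 181 nt), with the same right bound. A coding peak in exons 10 and 11 was held by the shNC list only, at a fold enrichment of 1.12.

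ADAM10 showed the highest enrichment at its 5′ end. The peak that covers the first 60 nt of its reference transcript and bases upstream had a fold enrichment of 4.49 in shNC and 8.38 in shY2-2, at percentile 93.8 of all pairs. It was 181 nt long in shNC and 331 nt in shY2-2, with 144 nt of each in any ADAM10 exon. It held 0 GGAC and 0 DRACH, the wider m6A motif described below, in shNC, and 1 of each in shY2-2. A coding peak in exon 12 had identical bounds in both lists (chr15:58611804-58611954), with 1.73 in shNC and 2.10 in shY2-2. The peak in the long 3′ UTR was 691 nt long in shNC with a fold enrichment of 2.04, and 181 nt long in shY2-2 with 1.60 and an FDR of 0.0891. ADAM10 thus had higher enrichment at the 5′ and coding positions and lower enrichment at the 3′ UTR. The shNC list alone held a peak over the start codon (FDR 0.319) and 1 touching exon 6 (FDR 0.0182), and the shY2-2 list alone held 1 touching exon 14 (FDR 0.0794).

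MMP7 was the gene with the most of its mRNA under peaks, at 68.7% of the reference transcript in shNC and 76.0% in shY2-2. The peak over the stop codon had a fold enrichment of 3.28 in shNC (FDR 1.26e-14) and 2.37 in shY2-2 (FDR 8.51e-06). The peak touching exon 4 had 1.82 and 2.31, and the peak at the 5′ end 1.31 and 1.73, so that the pairs did not share a direction. Of the peak touching exon 4, 200 of 329 nt in shNC and 497 of 626 nt in shY2-2 lay outside the reference transcript. MMP7 coding site 3, printed above, lies in exon 5 within the codons of the zinc-binding motif of the active site. A further GGAC at the start of exon 4, with its A at coding base 494, also lay in peaks of both lists, and its context spans the splice junction.

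MMP24 had a peak over its stop codon in the shNC list only. That peak (chr20:35274287-35274853) had a fold enrichment of 2.77 and an FDR of 5.01e-08, held 323 coding and 244 3′-UTR nt, and contained 3 GGAC on each strand. It met no peak of the shY2-2 list. At the end of the 3′ UTR each list held 2 overlapping peaks, with fold enrichments of 1.61 and 1.63 in shNC and of 1.99 and 2.04 in shY2-2. The inner block edge of 1 of these shNC peaks matched exons of MMP24-AS1, whose bounds hold all of MMP24. The strand of origin of the MMP24 peaks, that over the stop codon included, cannot be told from the lists. The 1264 nt of the reference transcript under peaks in shNC compared with 536 in shY2-2.

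TIMP2 kept a peak in both lists at the end of its mRNA only. The peak ended at the same base in both lists, and had a fold enrichment of 2.57 in shNC (chr17:78852977-78853696, FDR 1.58e-16) and 2.26 in shY2-2 (chr17:78852977-78853396, FDR 0.00229). The other 4 shNC peaks, 2 in coding exons and 2 in the 3′ UTR, met no shY2-2 peak, and their FDR lay between 0.0692 and 0.321. At an FDR of at most 0.05, TIMP2 therefore had 1 peak in each list. CEP295NL, a gene of the same strand within the TIMP2 locus, had an FPKM of 0.137 and 0.0337.

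TIMP1 and MMP14 differed in how far their peaks matched. The TIMP1 peak in exons 3 and 4 had identical bounds in both lists (chrX:47584978-47585404) and fold enrichments of 1.36 and 1.26. MMP14 had no peak in common, with a 60-nt peak in exons 4 and 5 in shNC (fold enrichment 2.75, FDR 0.223). The shY2-2 list held a peak in exons 8 and 9 (1.93, FDR 0.286) and a 301-nt peak in exon 10, before the stop codon, with a fold enrichment of 5.09, an FDR of 0.00389 and 4 GGAC. MMP14 was also the gene with the lowest FPKM in shNC.

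MMP2 and ADAM17 had no peak under their own names in either list. Among genes with a mean FPKM between 1 and 5, like MMP2, 18.3% had no peak in either list, and among genes between 20 and 100, like ADAM17, the share was 5.81%. Peaks filed under another gene nevertheless lay over exon bases of ADAM17. The last exon of ADAM17, which holds its stop codon and 3′ UTR, lay under 3 peaks in each list that carry the name of IAH1, a neighbouring gene on the opposite strand.

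The IAH1 peak nearest to the ADAM17 stop codon (chr2:9490127-9490276 in shNC) covered 100 coding and 50 3′-UTR nt of ADAM17 and 0 nt of IAH1 exons in GENCODE. Its fold enrichment was 1.86 in shNC (FDR 4.37e-05) and 1.49 in shY2-2 (FDR 0.00617), and it held 1 GGAC on the ADAM17 strand and 0 on the IAH1 strand. The other 2 overlapped each other in each list, with fold enrichments of 2.86 and 2.43 in shNC and 2.53 and 2.51 in shY2-2. The larger of them lay wholly in IAH1 exons, and 566 of its 931 nt in shNC and 506 of its 841 nt in shY2-2 were also in ADAM17 exons. The smaller lay wholly in exons of both genes. IAH1 had an FPKM of 6.61 and 6.31, compared with 19.7 and 23.8 for ADAM17, and the lists do not give the strand of the fragments, so that the source of these peaks cannot be told.

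The last exon of TIMP1 was likewise under a peak that carries the name of SYN1, a neuronal gene on the opposite strand. The peak covered 170 coding nt of TIMP1 and the stop codon in both lists, and 0 nt of SYN1 exons in GENCODE. Its fold enrichment was 1.61 in shNC (FDR 0.000191) and 1.74 in shY2-2 (FDR 2.14e-09). In both lists the peak held 2 GGAC on the TIMP1 strand and 4 on the SYN1 strand, and 2 DRACH, the wider m6A motif described below, on the TIMP1 strand against 7 in shNC and 6 in shY2-2 on the SYN1 strand. SYN1 had an FPKM of 0.0127 and 0.0337, while TIMP1 had 41.9 and 45.9. ADAM9 had 1 such peak in the shY2-2 list only, filed under SNORD38, with an FDR of 0.287.

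Covered length did not follow 1 direction. Counting exonic bases under peaks by gene, 3 of the 8 genes had less in shY2-2, 4 had more and TIMP1 had the same 238 nt, whereas 60.2% of the 10116 genes with a peak in both lists had less. On the reference transcripts alone, 4 genes had less and 3 more, since ADAM9 had 482 nt in shNC and 181 nt in shY2-2 there and its longer peak lies in an exon outside that transcript. The lowest ratios of shY2-2 to shNC length were 0.356 for MMP24 and 0.359 for TIMP2, at percentiles 10.5 and 10.6, and the highest was 6.52 for MMP14, where 60 nt compared with 391.

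Locations were read from the canonical transcripts of GENCODE release 44. In shNC, 11 of 25 peaks touched the 3′ UTR, 14 the coding sequence and 2 the 5′ UTR, and in shY2-2 the numbers were 8, 9 and 2 of 18. The annotation of the authors placed 15 and 12 of them in a 3′ UTR, against 59.1% and 59.5% of all peaks, and 4 of these in each list had no base in the 3′ UTR of the reference transcript. The coding-end peak of CD44 was among these 4.

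GGAC was searched on the mRNA strand of the spliced peaks, together with DRACH, the wider m6A motif (A, G or T, then A or G, then A, then C, then A, C or T), of which GGAC is a part when followed by A, C or T. In shNC, 14 of 25 peaks held GGAC, and in shY2-2 11 of 18 did, against 61.0% and 60.6% of all peaks. DRACH was held by 22 of 25 and 18 of 18, against 95.3% and 95.1%. The peaks with identical bounds in TIMP1, in CD44 at the 3′ end and in exon 12 of ADAM10 held no GGAC but between 2 and 9 DRACH. Among the printed sites, the GGAC of MMP7 coding site 2 and the first GGAC of the TIMP1 site are followed by G and are not DRACH. The density of GGAC in the reference transcripts ran from 2.51 per kb in ADAM17 to 6.50 per kb in TIMP1.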

How the data were processed

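Values were taken from 4 libraries of A549 cells, 1 input and 1 m6A antibody library per condition, grouped by the labels. Reads were aligned by the authors with HISAT2 (GRCh38), and StringTie gave the deposited FPKM of each gene in the input libraries. The authors called peaks with exomePeak and located them with ChIPseeker. Each deposited peak has a p-value (at most 0.049), deposited log10 scores of p and FDR, and a deposited fold enrichment, a ratio of antibody over input fragments. The thresholds of the caller, tool versions and the annotation release are not given in the sources used here. FPKM values are not counts, so no count test was run.

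Log2 ratios used a pseudocount of 1. Genes with an FPKM below 1 in both input libraries were left out. Percentiles are among those 12268 genes. Repeated peak lines were reduced to distinct peaks, and exonic blocks were compared with an overlap of at least 1 bp. Sequences were read from the reference genome, and motifs were counted in them. The 10 genes and the role lists were chosen with earlier results of these data known. Genes named from a list are those past a log2 ratio of 1 in size, or otherwise its highest and lowest, of which 1 is not reported here. CEMIP2 is listed as TMEM2 in the expression table. The steps were tested on simulated data. The alternatives were another pseudocount, centring, other FPKM, fold, FDR and enrichment limits, a 50% overlap, location by midpoint and motifs in the central 100 nt. Python 3.11.15, NumPy 2.4.6, pandas 2.3.3, pysam 0.24.0, bedtools 2.31.1 and matplotlib 3.10.9 were used.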

Additional observations from a re-analysis of the deposited data

How the results depend on the processing

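No paired analysis was possible because each condition has 1 input and 1 antibody library and no test was run. The median ratio of the 10 genes was -0.52 with a pseudocount of 0.1 and -0.45 after centring. All 20 recomputed ratios kept their sign, but a common pseudocount cannot change a sign. Centring moved each ratio by 0.0097 only, so that the signs are no check of the result. At 1.5-fold, 4 genes passed in place of 2 (14.3% of all genes). With a pseudocount of 0.1, 6 genes of the role lists passed in place of 3 (7.47% of all genes), with ADAM19 higher and A2M and NRG1 lower in addition. Limits on peaks lowered the counts most. The shNC list kept 13 peaks of the 10 genes at an FDR of at most 0.001, 11 at a fold enrichment of at least 2 and 3 at 4. The shY2-2 list kept 7, 9 and 3. With each limit applied to both lists, 5 of the 13 shNC and 5 of the 7 shY2-2 peaks matched at an FDR of at most 0.001. At a fold enrichment of at least 2, 5 of 11 and 5 of 9 matched, and at 4, 2 of 3 in each list. The matching share of all peaks at these limits was not computed. GGAC lay in the central 100 nt of 8 of 25 shNC and 6 of 18 shY2-2 peaks, close to the 32.1% and 32.0% of all peaks. By position in place of name, an alternative chosen after seeing the data, 29 shNC and 23 shY2-2 peaks of 9 genes were counted, and with overlapping peaks merged, also chosen after seeing the data, 23 and 17. With pairs that share a peak counted once, also added after seeing the data, 7 were lower and 6 higher in shY2-2 in place of 7 and 9. Of 60 recomputed values, 44 stayed within 1.5 times of the reported count or, for a log2 ratio, within 1.5-fold of the reported fold. That 0 reversed is no check, because only ratios past 1 in size could be labelled reversed, and counts could not. The pair counts of 7 and 9 against 7 and 6 stayed within the limit, although the side with more pairs changed. The depth behind FPKM and peaks is unknown, so that a gene with no peak cannot be told from a gene with too few reads.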
